A study of Arabidopsis thaliana with 4 samples.

Results

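NAC transcription factor genes were compared between axillary buds and the shoots that grow from leaf axils in Arabidopsis thaliana accession Col-0, the usual laboratory wild type. A probe set is a group of short array features that reports a transcript. The members were the genes of those probe sets that the platform annotation maps to exactly 1 locus with a symbol or synonym of NAC or ANAC and a number. The gene table held 100 such loci. Only NAC014 (AT1G33060) had such a probe set, so there was 1 member gene among the 13286 loci, covered by 13436 of the 22746 non-control probe sets, that could be named in this way. No probe set listed with several genes held a NAC locus, and probe sets not listed in the annotation are unnamed here. The other 99 loci, among them those of CUC1, CUC2, CUC3, NAP and RD26, are not analysed here. What follows describes 1 gene and cannot stand for the family.

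NAC proteins are plant-specific transcription factors named after NAM, ATAF1 and ATAF2, and CUC2. They bind DNA through a conserved domain at the N-terminal end and differ in the C-terminal part, which regulates transcription. Members of the family act in organ boundaries and axillary meristems, leaf senescence, stress responses and the thickening of secondary cell walls. NAC014, also called NTL2, belongs to the membrane-tethered members, which carry a membrane-spanning segment near the C-terminal end. Such a factor is held at a membrane until it is released to enter the nucleus, so a transcript level does not show how much of the factor is active.

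Total RNA of wild-type Col-0 plants grown at 22 °C in continuous light was hybridized to ATH1 arrays. Axillary buds taken before decapitation, the removal of the main shoot apex, formed the first group (2 arrays, called bud arrays here). Axillary shoots taken 24 h after decapitation formed the second (2 arrays, called shoot arrays). Buds of intact plants at the later time are not among the samples, so decapitation, wounding, 24 h of further growth, harvest time and tissue make-up cannot be told apart, and "after decapitation" names a group and not a cause. Fewer cells of a type and less RNA per cell cannot be told apart in such samples either.

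Array medians were 43.6 to 46.3 signal units for buds and 40.6 to 40.9 for shoots, and log2 signals of replicate arrays correlated across probe sets at r = 0.952 (buds) and 0.957 (shoots), where probe sets are not independent replicates. Of 10 shoot meristem markers 3 had a named probe set, LAS, CLV3 and UFO, with signals from 0.932 to 19.6. All were below 23.1, the lowest geometric mean signal tested, so the tissue named in the labels could not be checked against them. No xylem or flower organ marker had a named probe set.

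The comparison asked whether the transcript of NAC014 differed between buds and the shoots formed after decapitation. NAC014 was lower in the shoots. Its signal was 102 and 77.7 on bud arrays 1 and 2, and 52.3 and 49.99 on shoot arrays 1 and 2. Both shoot arrays lay below both bud arrays, so the groups did not overlap, and the lower bud signal was 1.49 times the higher shoot signal. The groups also failed to overlap in this direction at 35.5% of the 13648 tested probe sets, so the separation of 4 arrays is common in this comparison.

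The mean signal was 89.6 ± 16.9 in buds and 51.2 ± 1.64 in shoots (mean ± SD, n = 2 arrays in each group). The shoot arrays were close to each other, with a ratio of 1.05, whereas bud array 1 was 1.31 times bud array 2. The visible spread therefore lay mostly on the bud side, where the arrays differed by 23.9 signal units. With 2 arrays in each group this does not show that buds vary more. The test below pools the spread of both groups and moderates it by that of other probe sets (8.28 total degrees of freedom). Its p-value and interval therefore do not rest on the spread of NAC014 alone. The gap of 25.4 units between the lower bud and the higher shoot array was only slightly larger than the 23.9 units between the bud arrays.

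**Figure D1:**
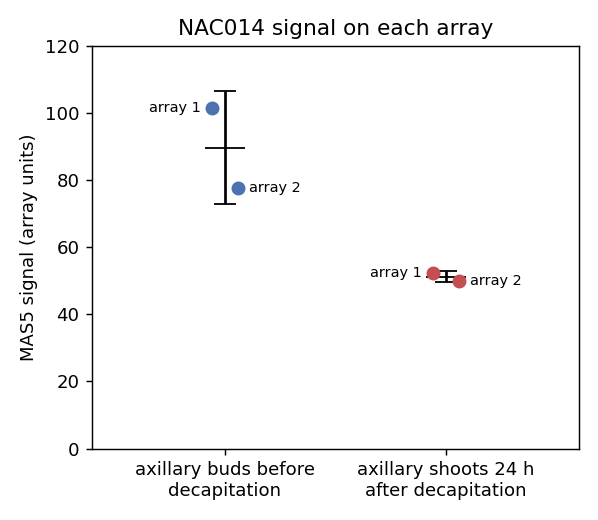
Signal of the NAC014 probe set (MAS5 signal, array units, linear axis from 0) on the 2 bud arrays and the 2 shoot arrays. Points are single arrays, and the horizontal mark and bars give the mean ± SD of each group; the bud arrays at 102 and 77.7 both lie above the shoot arrays at 52.3 and 49.99, and the bud arrays are farther apart.

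As a ratio of geometric means, NAC014 was 1.74-fold lower in the shoots (95% interval 1.19 to 2.54), or a log2 fold change of −0.80 with a standard error of 0.24. It passed the threshold narrowly, with an adjusted p of 0.0461 (limma with Benjamini-Hochberg adjustment over 13648 probe sets; unadjusted p = 0.00973). Of all tested probe sets 12.0% passed in the same direction and 22.1% in either, so 1 call in 1 member says nothing particular about NAC genes. An exact two-sided permutation test of 2 against 2 arrays gave p = 0.333, the smallest p that this design allows.

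The call did not hold under several other treatments of the data. NAC014 missed the threshold without bud array 1 (log2 fold change −0.60, adjusted p = 0.208), without shoot array 1 (adjusted p = 0.168), without shoot array 2 (adjusted p = 0.137), with array medians set equal (adjusted p = 0.0696), with quantile normalization (adjusted p = 0.0568) and with no filter on low signals (adjusted p = 0.0698). Under all 10 alternatives in which it was tested the value was lower in the shoots, from −0.99 to −0.60 on the log2 scale. Only array medians set equal and quantile normalization could have changed this direction, because both shoot arrays lay below both bud arrays. The limma adjusted p was 0.05 or less with a pseudocount of 8, with no intensity trend and with the replicate numbers as blocks.

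**Figure D2:**
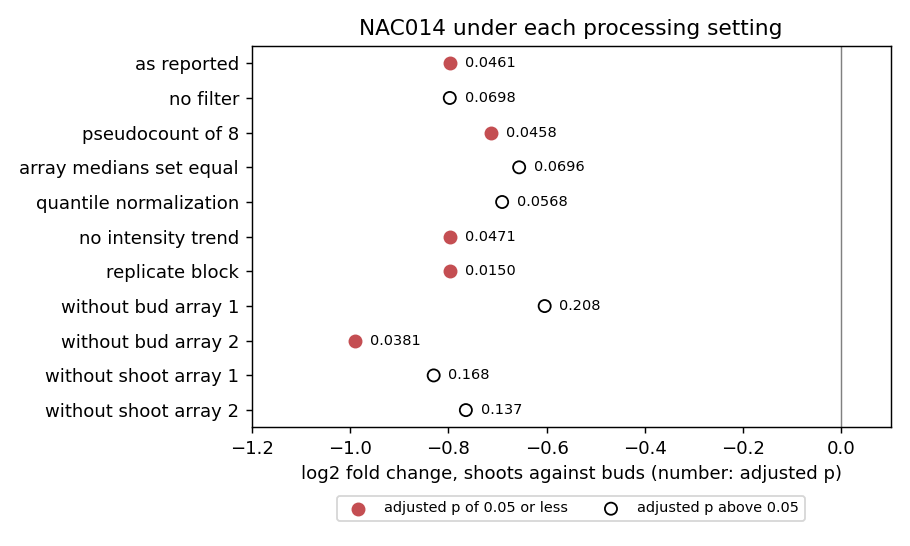
Log2 fold change of NAC014 (shoots against buds, horizontal axis) as reported and under each of 10 alternatives in which it was tested, with the adjusted p printed beside each point. Only array medians set equal and quantile normalization could have moved a point past 0. Filled points passed the threshold and open points did not; every point lies below 0, between −0.99 without bud array 2 and −0.60 without bud array 1, and 6 of the alternatives are open.

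Seen against the rest of the array, the decrease was moderate. Over all tested probe sets the log2 fold change had a median of −0.06 and quartiles at −0.47 and 0.36, and NAC014 lay 0.73 below that median. This distance was 0.57 without bud array 1 and 0.92 without bud array 2. A lower log2 fold change than that of NAC014 was found at 12.9% of tested probe sets. Among the 1635 probe sets that passed as lower, the median log2 fold change was −1.12, a larger decrease than that of NAC014. A smaller unadjusted p was found at 21.1% of the tested probe sets. Of all calls 45.9% were higher in shoots, or 61.1% with array medians set equal.

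**Figure D3:**
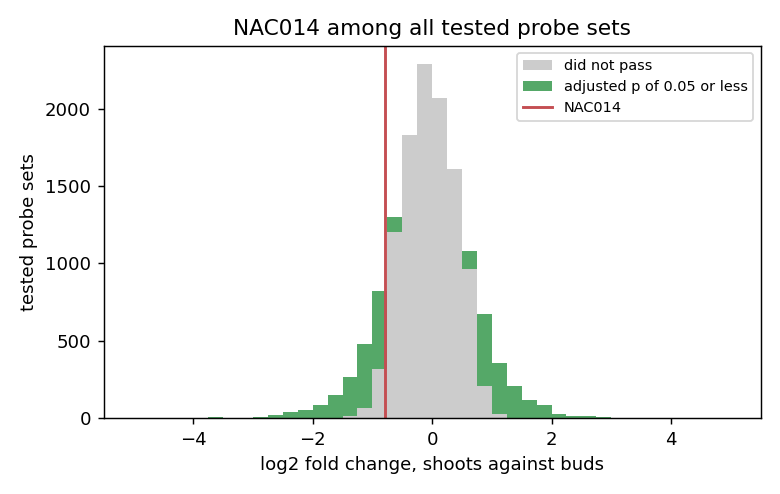
Distribution of log2 fold changes (shoots against buds, horizontal axis) of the 13648 tested probe sets, with the number of probe sets on the vertical axis and those at an adjusted p of 0.05 or less in green. The line marks NAC014 at −0.80, on the lower shoulder of the distribution, where 12.9% of probe sets lie further to the left.

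Some measures of RNA quality differed between the groups. Control probe sets lie near both ends of some transcripts, and their 3'/5' signal ratio rises when transcripts are shortened or copied incompletely. The 6 such pairs cover only actin, GAPDH and ubiquitin, so they are not 6 independent measures, and only actin separated in both of its pairs. Of the 6 pairs, 4 had both bud arrays above both shoot arrays. Both actin pairs were among them, one with 1.66 and 1.38 in buds against 0.990 and 1.14 in shoots, and the other with 5.81 and 6.67 against 2.13 and 3.19. So were a GAPDH pair, at 1.51 and 0.812 in buds and 0.714 and 0.601 in shoots, and a ubiquitin pair, at 1.04 and 1.02 in buds and 0.966 and 0.973 in shoots. The groups overlapped for another GAPDH pair, with 1.20 and 1.08 in buds and 1.14 and 0.938 in shoots. They also overlapped for another ubiquitin pair, with 0.704 and 0.963 in buds and 0.718 and 0.887 in shoots. The part of RNA quality in the NAC014 difference was not tested. Of 8 phloem markers only SWEET11, a sucrose exporter gene, had a named probe set. Its signals were 151 and 82.1 in buds and 25.9 and 47.7 in shoots, without overlap, as at 35.5% of tested probe sets. It was 3.16-fold lower in the shoots (limma adjusted p = 0.0190), a call lost without bud array 1 (adjusted p = 0.0515) or shoot array 1 (adjusted p = 0.117). Among all tested probe sets 12.0% passed as lower, and the part of SWEET11 in the NAC014 difference was not tested. Of 8 epidermal and 9 mesophyll markers 1 each had a named probe set, and neither passed. FAMA, a stomatal regulator gene, was at a log2 ratio of −0.19 (limma adjusted p = 0.606), and RCA, the Rubisco activase gene of photosynthetic cells, at −0.03 (adjusted p = 0.953). The shoot signals of RCA were 717 and 329, against 469 and 526 in buds. Leaving out shoot array 1 gave −0.60 and leaving out shoot array 2 gave 0.53. Without bud array 1 the value was −0.12, and without bud array 2 it was 0.05. The direction of RCA thus turned with single arrays of either group, and it also turned with array medians set equal (0.11).

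Few of the genes listed for other NAC factors had a named probe set, and none is known here as a target of NAC014. The others may have probe sets that are unnamed here. Since 12.0% of all tested probe sets passed as lower and 22.1% in either direction, counts in such short lists are not read as results. For the senescence regulators ORE1, NAP and ORS1, 2 of 15 listed loci had a named probe set and 1 was tested. This was SAG101, a senescence-associated gene whose product also acts with EDS1 in immunity, at 37.6 and 52.5 in buds against 18.3 and 18.6 in shoots. It fell 2.41-fold (limma adjusted p = 0.0214), but both shoot signals lay below 23.1, which makes the size uncertain, and the call was lost without bud array 2 (adjusted p = 0.0820), shoot array 1 (adjusted p = 0.107) or shoot array 2 (adjusted p = 0.0630).

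NAC013 and NAC017, membrane-tethered like NAC014, are known to carry signals from mitochondria to the nucleus. Of 16 listed genes of that response, 6 had a named probe set, 2 were tested and 0 passed. Over all tested probe sets 22.1% passed, so 0 of 2 is not read as a result. The median log2 fold change of the 2 tested genes was −0.12, against −0.06 over all tested probe sets. NDB2, an alternative NAD(P)H dehydrogenase gene, had signals of 60.8 and 52.7 in buds and 36.9 and 34.6 in shoots (log2 fold change −0.67, limma adjusted p = 0.0886). Its groups did not overlap, as at 35.5% of tested probe sets. AT2G21640 had signals of 29.6 and 46.2 in buds and 46.2 and 53.0 in shoots, which overlapped (log2 fold change 0.42, limma adjusted p = 0.338). The unadjusted p was 0.0266 for NDB2 and 0.192 for AT2G21640, both from limma; before adjustment 1 of the 2 was under 0.05, as were 37.3% of all tested probe sets, so nothing is read from that count.

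The remaining lists gave little. For SOG1, a NAC factor of the DNA damage response, 2 of 14 listed loci had a named probe set, both were tested and 0 passed. Log2 fold changes were 0.06 for AT4G32700 and −0.12 for SIAMESE, a cell cycle inhibitor gene (limma adjusted p = 0.912 and 0.713). Whether SIAMESE depends on SOG1 was not tested here. Neither of the 2 genes had an unadjusted limma p under 0.05. With 22.1% of all tested probe sets passing, nothing is read from 0 of 2. For the ATAF and RD26 clade 1 of 22 and for the CUC genes 1 of 17 listed loci had a named probe set, and none of these was bright enough to be tested. For the secondary wall factors 0 of 22 had a named probe set.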

How the data were processed

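The table deposited by the authors holds 1 linear-scale intensity for each probe set and array, from 4 single-colour arrays. Per the submitters' processing notes, MAS5 and GCOS were used, in versions that the sources used here do not give. RNA came from a column kit and was labelled with biotin from the 3' end, per the labels' protocols. Trimmed by 2% at both ends, every array averaged 100.0, so arrays had been brought to one target and a difference in RNA content per cell would be hidden. Dim probe sets are noisy after mismatch subtraction, and detection calls were not used here.

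The labels number the replicates but do not state that they are separate plants, so the spread behind each p-value may be technical and is that of these samples alone. After removal of 64 controls, probe sets in the upper 60% by mean log2 signal were tested (13648, with a geometric mean of at least 23.1; NAC014 at 67.4) by lmFit and trended eBayes (limma 3.58.1, R 4.3.3), adjusted after Benjamini and Hochberg at 0.05, without pseudocount or further scaling. Genes were named through a platform annotation and the TAIR10.1 gene set. All members with a named probe set are given, and up to 4 loci of each list (2 by p-value and 2 by size of change). SWEET11, RCA and FAMA are the tested cell type markers; LAS, CLV3 and UFO were named after their values were seen. Members and lists were chosen with earlier results of these data known. The number of arrays limits the precision. On simulated data for this comparison (20 sets of 13648 probe sets, 200 changed), limma recovered 7.55% of 2-fold and 76.1% of 4-fold changes with 5.21% false calls; far more were called in the data, so this does not give the recovery there. Planned descriptions of promoters and protein identity were not run, as no sequence was used here.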

Additional observations from a re-analysis of the deposited data

How the results depend on the processing

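NAC014 was lower in the shoots under each of the 10 alternatives in which it was tested. Its direction could change only with array medians set equal or quantile normalization, because both shoot arrays lay below both bud arrays. At the stricter filter (upper 40%, geometric mean of at least 68.7) it was not tested, since its own was 67.4. The number of NAC probe sets that passed fell from 1 to 0 with no filter (log2 fold change −0.80, adjusted p = 0.0698), with array medians set equal (−0.66, 0.0696) and with quantile normalization (−0.69, 0.0568). The same scalings moved the median of all tested probe sets from −0.06 to 0.08 and 0.00310. With 1 array left out the value lay between −0.99 and −0.60, and the number that passed between 0 and 1; it was 0 when bud array 1 or either shoot array was left out. A pseudocount of 8 gave −0.71 (adjusted p = 0.0458) and no intensity trend an adjusted p of 0.0471. With no filter the unadjusted limma p was 0.00922, against 0.00973 as reported, and the adjustment ran over 22746 probe sets instead of 13648. Equal array medians shift all probe sets alike, keeping NAC014 0.73 below their median. Beyond these values the cause of the lost calls was not tested. Fewer arrays also leave fewer degrees of freedom, and the part of this in the lost calls was not tested either. Over all probe sets, 1388 higher and 1635 lower became 179 to 1214 higher and 389 to 1441 lower with 1 array left out. The lowest of these counts came without shoot array 1, 924 were higher without shoot array 2, and 1016 were lower without bud array 1. The replicate numbers give only 2 pairs and no label says they mark a shared batch. With the replicate block 2109 were higher and 2548 lower and NAC014 had an adjusted p of 0.0150; deviations of same-numbered arrays from their group means correlated at 0.225 across probe sets. Of the listed genes, SAG101 passed under 7 and SWEET11 under 8 of 10 alternatives, and both stayed lower in all.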

Other observations

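Of the 10 genes nearest to NAC014 in the order of the gene table (5 on each side, a window chosen after the data were seen), 5 had a probe set with 1 locus and 3 were tested. AT1G33050 was lower in the shoots, with a log2 fold change of −1.75 (limma adjusted p = 0.00434). As 12.0% of all tested probe sets passed in this direction, 1 call in 3 genes is not read as a shared pattern. The log2 fold changes of AT1G33080 (−0.71, limma adjusted p = 0.0759) and AT1G33055 (−0.17, adjusted p = 0.784) did not pass.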
